A study of Mus musculus with 12 samples.

Results

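The 10 zinc finger genes Zfp980, Zfp600, Zfp992, Zfp981, Zfp993, Zfp978, Zfp991, Zfp988, Zfp982 and Zfp985 lie between positions 145000000 and 148000000 of mouse chromosome 4 (mm10), and each had at least 1 FLAG-Zscan4 region in its body or within 10 kb of it. They are 10 of the 49640 genes used here, and 27 of the 4973 listed regions lay at them. The genes were chosen by the number and crowding of regions in this same list, so their counts, spacing and scores are given as a description and were not tested. The regions come from J1 mouse embryonic stem (ES) cells, of labelled strain 12910la, that overexpressed Zscan4c with a FLAG tag from a pCMV plasmid. These cells were transfected with 1000 ng of plasmid, selected 24 h later for 10 days in G418 at 500 ug/ml and picked as monoclonal cells. The protocol names the plasmid pCMV-FLAG where it was built and pCMV-tag2 where it was transfected. Whether the library holds 1 clone or several is not stated in the labels. The series has 12 samples, 7 from overexpressing and 5 from wild-type cells, with 1 sample per group: immunoprecipitations of FLAG-Zscan4 and of acetylated or methylated histone H3, and inputs. Only a list of regions was analysed. The list is tied to no sample by its record, and it was taken as the FLAG-Zscan4 immunoprecipitation because its region names begin with Zscan4 and 1 sample alone is titled so. Read this way it comes from 1 library, and it carries neither input values nor reads, so the depth behind a region is unknown and no condition is compared with another.

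Zscan4c encodes a DNA-binding protein with a SCAN domain and zinc fingers, made in the early mouse embryo and in a small fraction of ES cells at any time. Genes of the chromosome 4 cluster belong to the KRAB zinc finger family, whose proteins bind DNA through arrays of zinc fingers and recruit Trim28 (KAP1) and, with it, histone methylation and heterochromatin proteins. The family is known in ES cells and embryos for silencing retrotransposons. Its genes arise by repeated duplication and often stand in clusters of similar copies, which makes short reads from 1 copy hard to assign.

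All 10 genes had a region, by the way they were chosen. Among all 21792 protein-coding genes, 11.8% had one by the same measure, and among the 9620 protein-coding genes outside the stretch whose span fell in the range of these 10 (20.4 to 479 kb) it was 18.6%. A region midpoint lay inside the body in 7 of the 10 genes, against 7.7% of all protein-coding genes. The exceptions were Zfp600, Zfp988 and Zfp985, whose regions lay outside the body within 10 kb. Of the 27 regions, 19 lay in a body and 8 only in a flank. The genes overlap on the map, so 6 of the 27 regions counted for 2 genes: Zfp978 encloses both Zfp991 (48.5 kb) and Zfp988 (28.5 kb), and Zfp981 shares 26.5 kb with Zfp993. The authors gave each region a whole-number score of unstated scale, which serves here to rank regions within the list and for nothing else. Over the list it had a median of 33. Of the 27 regions at the genes, 23 scored at or above that median and 8 scored 100 or more, and 5 of the 10 genes had a region of 100 or more.

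**Figure D1:**
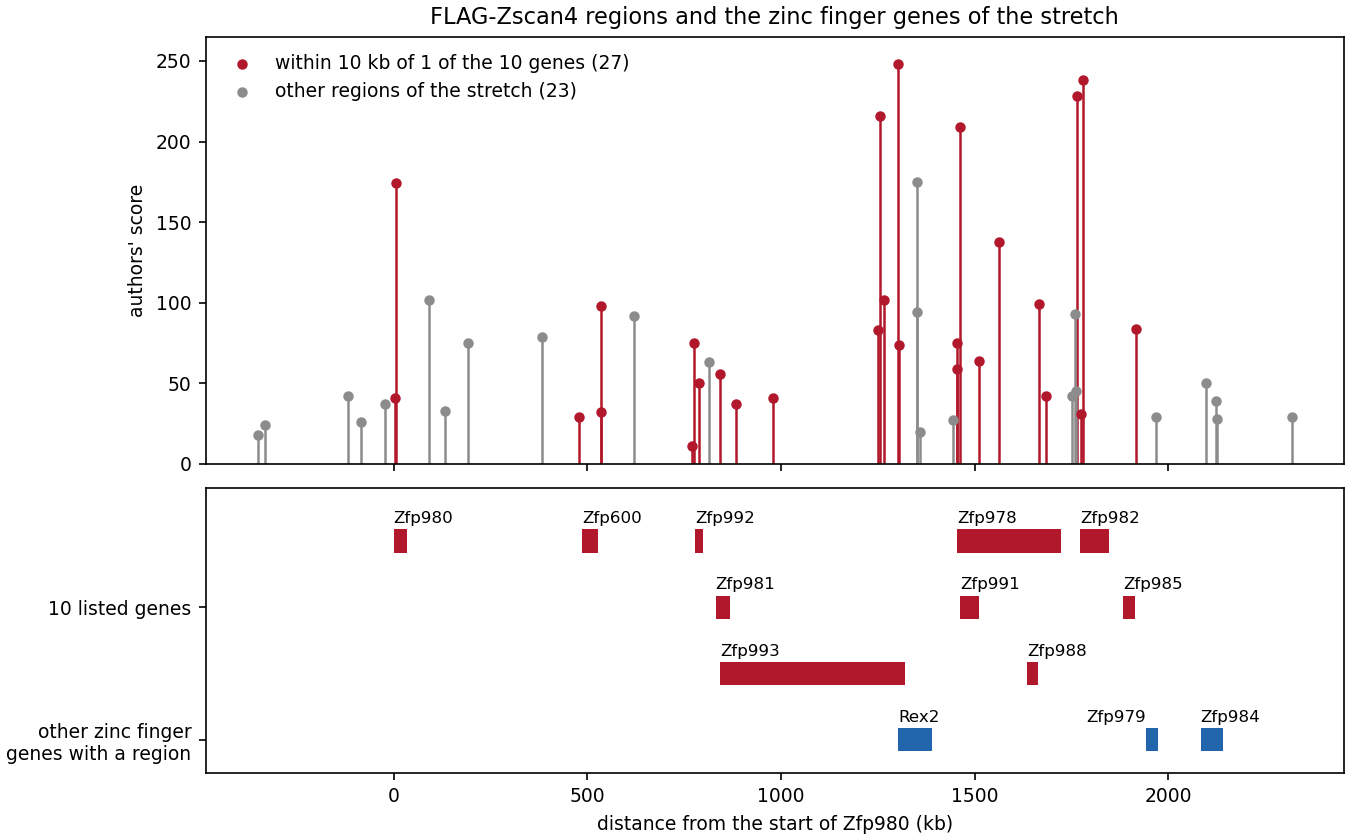
Top, the authors' score of each FLAG-Zscan4 region against its distance from the start of Zfp980 in kb, with the 27 regions at the 10 genes in red and the other 23 of the stretch in grey. Bottom, the bodies of the 10 genes (red) and of 3 other zinc finger genes with a region (blue): the highest scores, 248 and 238, stand in Zfp993 and Zfp982.

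Similar starts are a feature that 6 of the genes share and that their choice did not use. RefSeq promoter windows (GRCm38.p6, 250 bases before to 50 after a start) matched 7 of the 10 genes with 10 windows. Zfp978, Zfp991 and Zfp992 had none. A window was called alike when it aligned with another window of the 10 genes over at least 200 columns. This limit was chosen after the windows had been read. In the 6 windows that met it, of 6 different genes, the best local alignments of the 15 pairs ran over 237 to 303 columns. They had 80.1 to 92.8% identical bases, and their length follows in part from the limit. The longest run of letters that all 6 hold in the 120 bases before the start has 12 bases, TATTGGGCGGGT. The search was set up after the windows had been read. On either strand the run occurred in 12 of all 32851 windows (0.0365%). Of these, 10 were among the 40 windows of the stretch, and the other 2 belonged to the zinc finger genes Zfp947 and Zfp994 of chromosome 17. The 6 windows that gave the run hold it by construction and are among these counts. The further windows of the stretch with it were those of Gm13212, Rex2, Zfp979 and Zfp984, which are not among the 10 genes. The last 120 bases before the start are shown for the 6 windows, because they let a reader see how alike the copies are. They are read 5′ to 3′ on the + strand, and the capitals mark the shared run.
Zfp980: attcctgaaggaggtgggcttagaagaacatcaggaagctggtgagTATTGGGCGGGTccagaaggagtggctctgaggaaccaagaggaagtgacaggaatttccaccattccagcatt
Zfp600: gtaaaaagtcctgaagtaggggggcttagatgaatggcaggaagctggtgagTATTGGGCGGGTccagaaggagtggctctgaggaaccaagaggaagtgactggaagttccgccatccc
Zfp981: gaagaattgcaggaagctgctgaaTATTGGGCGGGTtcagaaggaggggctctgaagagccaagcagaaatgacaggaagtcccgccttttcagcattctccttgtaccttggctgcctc
Zfp988: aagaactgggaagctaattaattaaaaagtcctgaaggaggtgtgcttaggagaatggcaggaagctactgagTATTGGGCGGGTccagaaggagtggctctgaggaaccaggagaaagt
Zfp982: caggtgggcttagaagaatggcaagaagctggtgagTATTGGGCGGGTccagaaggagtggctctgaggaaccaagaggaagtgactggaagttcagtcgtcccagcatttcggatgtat
Zfp985: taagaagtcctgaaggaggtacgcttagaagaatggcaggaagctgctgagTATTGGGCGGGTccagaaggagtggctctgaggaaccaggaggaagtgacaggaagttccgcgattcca
The stretches are chr4:145670577-145670696 for Zfp980, chr4:146156707-146156826 for Zfp600, chr4:146514800-146514919 for Zfp981, chr4:147305484-147305603 for Zfp988, chr4:147492297-147492416 for Zfp982 and chr4:147553157-147553276 for Zfp985. A window start is the start of a listed transcript and need not be the end of the gene on the map: those shown for Zfp981 and Zfp982 lie 12.9 and 49.3 kb inside the gene, and the other 4 are the gene starts. The run begins 47 bases (Zfp988) to 96 bases (Zfp981) before the start.

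The other 4 windows were a different sequence. They were the window of Zfp993, the second window of Zfp600 and the windows of Zfp982 at 147443114 and 147500686. In the 30 pairs that involve any of them the local alignment reached at most 40 columns, with a median of 13. By the limit that set these windows apart, the alignments had to be shorter than 200 columns. The GC content of the 6 alike windows was 39.7 to 44%, against 56% in the first window of Zfp982. It was 38% in the window of Zfp993, 45% in the second window of Zfp600 and 43% in the third of Zfp982. GC content thus did not set the groups of windows apart. The letters TGCACAC, known as a Zscan4 motif, were searched on both strands and occurred in 1 of the 10 windows, against 4.40% of all 32851 windows. They are in the window of Zfp982 at 147500686, upstream of the start. The match is shown there because it is the only one in the stretch's 40 windows, on the + strand with its letters, the reverse complement of the motif, in capitals (chr4:147500523-147500569).
Zfp982: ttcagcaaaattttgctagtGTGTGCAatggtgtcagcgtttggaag
This window of Zfp982 does not hold the shared run, and the nearest listed region was 49.7 kb from its start.

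**Figure D2:**
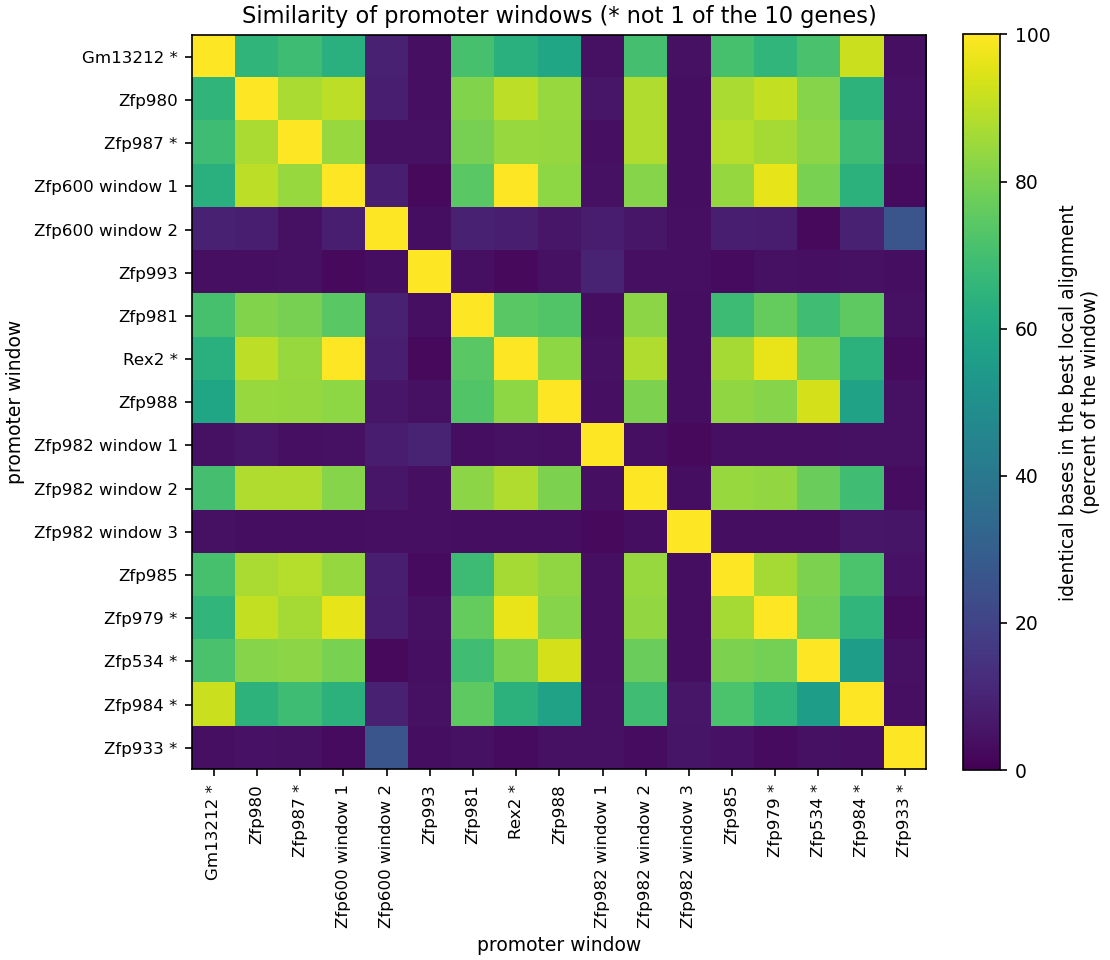
Identical bases in the best local alignment of each pair of promoter windows, as a percent of the window, for windows of the 10 genes and of 7 other genes of the stretch (marked *). The windows of Zfp980, Zfp981, Zfp988 and Zfp985, window 1 of Zfp600, window 2 of Zfp982 and all marked ones but Zfp933 are alike, while the window of Zfp993, window 2 of Zfp600 and windows 1 and 3 of Zfp982 stand apart.

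Of the 7 genes with a window, 5 had a region midpoint within 10 kb of a window start, against 4.52% of 27026 genes with a window. In 1 a midpoint lay within 1 kb, against 0.403%. These genes were chosen for regions in or near their bodies, so high shares near starts are partly built in. Zfp981 and Zfp993 count through the same region. The gene with a midpoint within 1 kb was Zfp981. Its region (chr4:146514034-146514529, score 56) ended 140 bp before the window and had its midpoint 638.5 bp upstream of the transcript start at 146514920. On the map the same region is in the body of Zfp981, 12.3 kb from the gene start at 146502000. No region overlapped a promoter window of the 10 genes.

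The first gene along the chromosome, Zfp980 (145670697 to 145704437), had 2 regions in its body. They lay at chr4:145674516-145674765, 3.94 kb from the start, with a score of 41, and at chr4:145676745-145677075, 6.21 kb from the start, with a score of 174. Zfp600 (146156827 to 146198756) had none in its body. Its regions lay 6.70 kb before the start, with a score of 29, and 5.88 and 7.25 kb after the end, with scores of 32 and 98. Zfp992 (146449030 to 146469440), at 20.4 kb the shortest of the genes, had 1 in its body with a score of 50 and 2 before its start with scores of 11 and 75. The score of 11 was the lowest in the stretch.

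Zfp993 had the most regions, 8, all in its body (146512849 to 146991471). At 479 kb it is also the longest of the genes, and the RefSeq table lists 1 predicted transcript for it. Along the chromosome the 8 regions scored 56, 37, 41, 83, 216, 102, 248 and 74. The first 3 lay in the first 138 kb of the gene, and the next 270 kb were empty. The other 5 lay in the last part of the gene, 408 to 463 kb from its start, and included the scores of 216 and 248. The region of score 248 (chr4:146971807-146972157) was the highest of the stretch, at rank 3 on chromosome 4 and rank 133 in the list. It also lay 1.63 kb before Rex2, another zinc finger gene, whose body begins inside Zfp993. The first of the 8 is the Zfp981 region described above, and was the only region at Zfp981.

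Zfp978 (147124882 to 147392027) had 7 regions, 6 of them in its body. Along the chromosome they scored 75, 59, 209, 64, 138, 99 and 42. The first lay 1.09 kb before the gene. Of the 7, 4 also counted for Zfp991 (147132093 to 147180579), with scores of 75, 59, 209 and 64. The score of 209 (chr4:147132818-147133053) was in the bodies of both genes, 0.843 kb from the start of Zfp991. The score of 99 was the only region at Zfp988 (147305604 to 147334067). It lay 1.98 kb after the end of that gene.

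Zfp982 (147443114 to 147516064), a gene reported to take part in mouse ES cell self-renewal, had the highest middle score, with regions of 228, 31 and 238. The region of 228 (chr4:147433938-147434278) lay 9.01 kb before the gene and was the one nearest to the 10 kb limit on the inside. Just outside the limit were a region of score 45 at 10.5 kb before Zfp982 and one of score 27 at 10.9 kb before Zfp978. The region of 238 (chr4:147450920-147451148) was in the body. Zfp985 (147553277 to 147585201) had 1 region, of score 84, at 2.01 kb after its end.

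Some positions recurred between genes. In Zfp978 and Zfp982 the first 2 regions of the body had a like layout. In Zfp978 a region of 591 bp and score 59 lay 0.975 kb from the start, followed at 8.05 kb by one of 236 bp and score 209. In Zfp982 a region of 473 bp and score 31 lay 1.06 kb from the start, followed at 7.92 kb by one of 229 bp and score 238. The distance between the 2 regions was 7.08 kb in Zfp978 and 6.86 kb in Zfp982. Past the other end, Zfp991, Zfp988 and Zfp985 each had a region 1.03, 1.98 and 2.01 kb after the gene, with scores of 64, 99 and 84. Start and end of a gene are its lower and higher map positions here, and the strand of Zfp978 and Zfp991 was not used. These likenesses were picked out after the positions were seen. No source used here says how reads that match several places were treated, so signal from 1 copy and from a similar copy cannot be told apart.

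**Figure D3:**
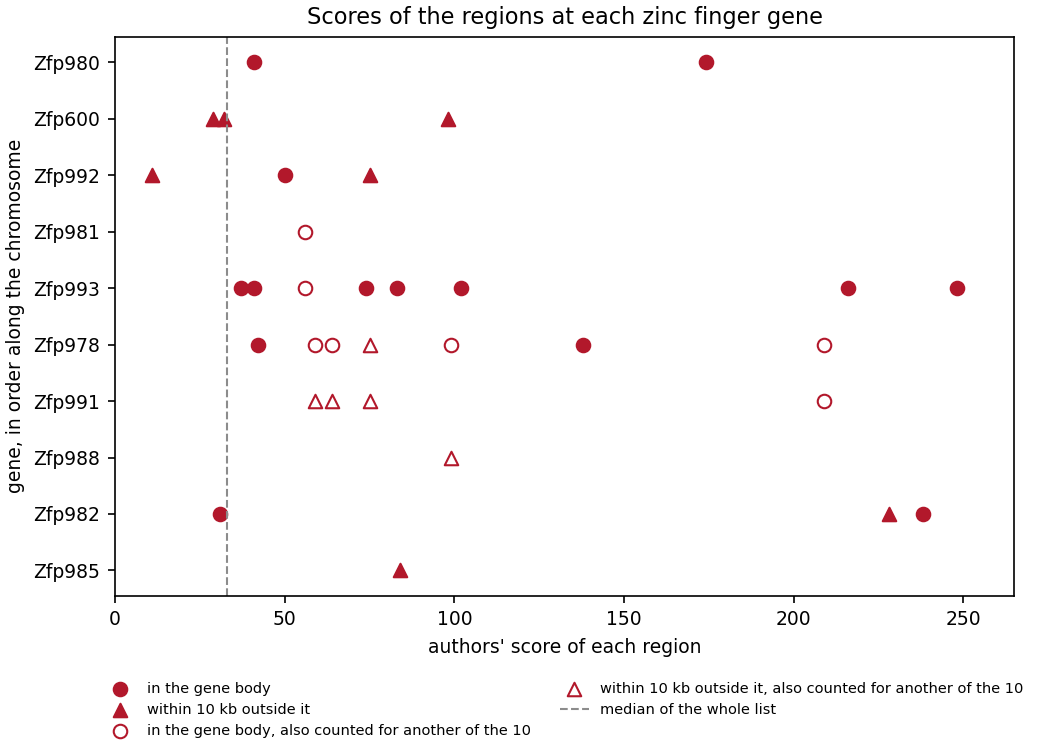
The authors' score of every region at each of the 10 genes, in order along the chromosome. Circles lie in the body and triangles outside it within 10 kb, open symbols are regions that count for 2 of the genes, and the dashed line is the list's median of 33: Zfp980, Zfp993, Zfp978, Zfp991 and Zfp982 have scores of 100 or more.

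Over this stretch of 3 Mb as a whole, 50 regions were listed, 16.7 per Mb, against 266 regions or 1.77 per Mb in the rest of chromosome 4, a ratio of 9.42. The stretch is 1.96% of the chromosome's annotated length and held 15.8% of its 316 regions. The 3 windows of 1 Mb held 10, 17 and 23 regions in order. The other 151 windows held at most 9 and a median of 1, and 40 of them held none. On the autosomes and the X chromosome 1 window held more than the 23 of the window from 147 Mb. The first and last regions of the stretch began at 145319419 (score 18) and 147989512 (29), and the nearest ones outside at 144327061 (35) and 148528550 (76). With the stretch narrowed to run from Zfp980 to Zfp985, the ratio was 11.1.

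**Figure D4:**
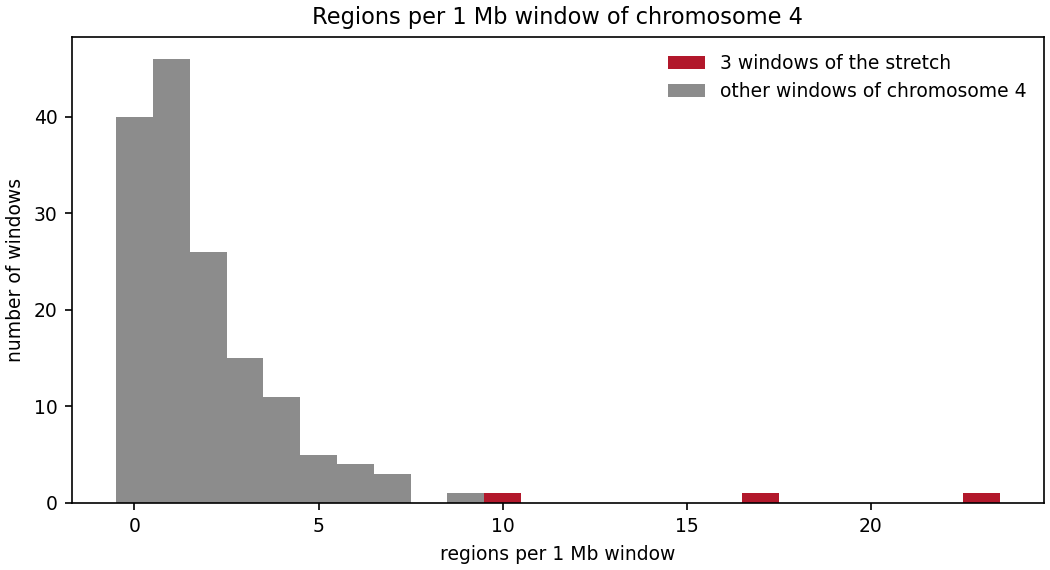
Number of 1 Mb windows of chromosome 4 by the number of regions they hold, with the 3 windows of the stretch in red and the other 151 in grey. The red windows hold 10, 17 and 23 regions, and no grey window holds more than 9.

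Successive midpoints in the stretch were a median of 33.5 kb apart (interquartile range 7.08 to 85.2 kb), against 271 kb (82.7 to 752 kb) in the rest of the chromosome. The ratio of the medians, rest over stretch, was 8.07, and it was 16.4 among regions at or above the median score and 24.6 at or above the upper quartile. Another region lay within 10 kb of 25 of the 50 regions in the stretch, against 24 of 266 in the rest. The regions stood in knots with empty spans between them. Of 49 distances, 15 were at most 10 kb and 8 were over 100 kb. The closest midpoints, 0.683 kb apart, lay in Rex2, and the longest empty span, 270 kb, lay in Zfp993. Gaps of the assembly were not analysed here, so an empty span is not shown to be free of FLAG-Zscan4. By the distance between neighbours the stretch was nearer to the dense start of chromosome 14 (3 to 6 Mb, 47 regions, median distance 27.9 kb) than to the denser stretch of chromosome 8 at 19 to 21 Mb (90 regions, 6.06 kb). Neither likeness was tested.

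Scores in the stretch had a median of 57.5 (interquartile range 34 to 93.8, full range 11 to 248), against 31 (18.3 to 55.3, 10 to 439) in the rest of chromosome 4. The difference of the medians was 26.5, and it was 44 with the stretch narrowed to run from Zfp980 to Zfp985 and 9.5 among regions at or above the upper quartile. A score at or above the list's median was held by 38 of the 50 regions, against 129 of 266 in the rest. Scores of at least 100 numbered 10 of 50 in the stretch, against 25 of 266 in the rest. Of the 20 highest regions of the chromosome, 8 lay in the stretch. Higher scores were not particular to this stretch. The median score was 55 at the dense start of chromosome 14 (3 to 6 Mb) and 100 on chromosome 8 at 19 to 21 Mb. Scores at or above the list's median were held by 36 of 47 regions there on chromosome 14 and 79 of 90 on chromosome 8. Within the stretch the 27 regions at the 10 genes had a median of 75, against 42 for the other 23, and 8 of the 10 highest scores were at the genes. The 2 exceptions were a region of 175 in Rex2 and one of 102 in Vmn2r-ps15, a pseudogene of the vomeronasal pheromone receptors. Of 6 named Vmn2r-ps pseudogenes in the stretch 5 had a region in the body or within 10 kb, against 33.9% of all 56 pseudogenes of the stretch. Elsewhere it was 4.29% of 140 Vmn2r-ps pseudogenes and 4.61% of all pseudogenes, with spans not matched and no test. All regions at Vmn2r-ps17, Vmn2r-ps18 and Vmn2r-ps19 also count for the 10 genes. Bodies of the 10 genes held 38.0% of the stretch's regions on 31.9% of its length, or 19.8 per Mb, against 15.2 per Mb outside them. Both densities were above the 1.77 per Mb of the rest of the chromosome. Among regions at or above the list's median score the ratio of densities was 14.8, and at or above its upper quartile of 55 it was 19.4.

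**Figure D5:**
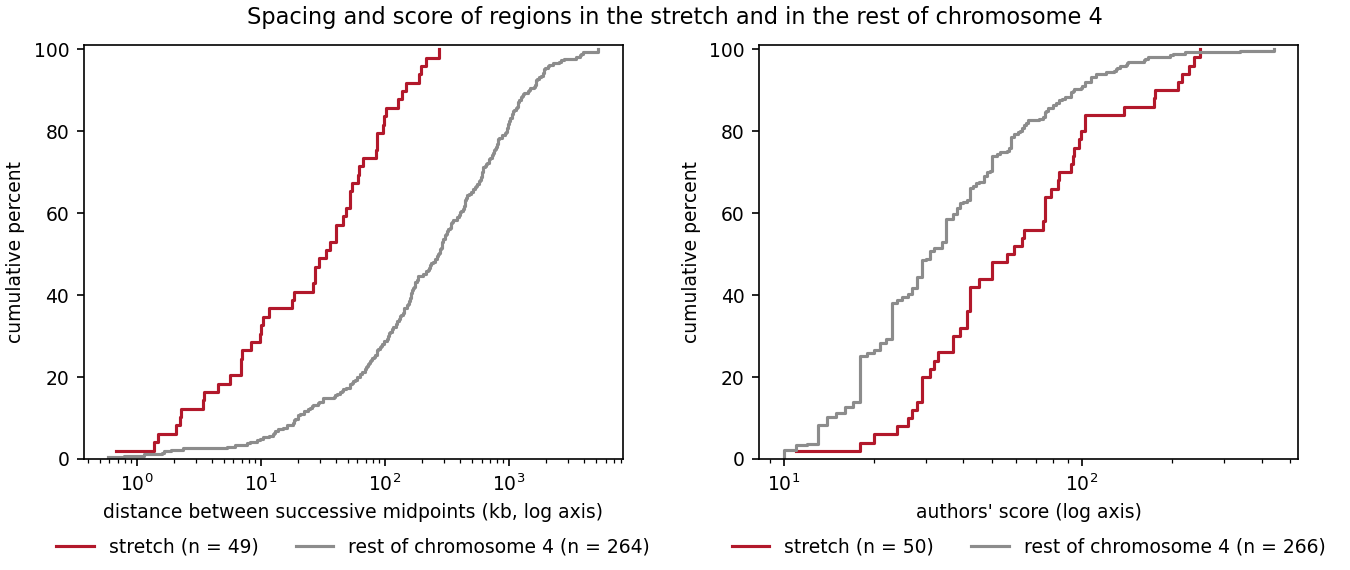
Cumulative percent of distances between successive midpoints (left, kb) and of scores (right), both on log axes, for the stretch (red) and the rest of chromosome 4 (grey). The median distance is 33.5 kb in the stretch and 271 kb in the rest, and the median score is 57.5 in the stretch and 31 in the rest.

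The median width was 291.5 bp in the stretch and 317 bp in the rest of the chromosome, and 6 of 50 regions were wider than 500 bp, against 68 of 266 in the rest. The 10 highest scores of the stretch were on regions with a median width of 291 bp (220 to 599 bp), and the 6 regions wider than 500 bp had a median score of 42 (29 to 138). Across the 50 regions of the stretch Spearman's rho between width and score was -0.27, against 0.38 across the 266 regions of the rest. All of these regions come from 1 library, and the difference between both values was not tested. At the start of chromosome 14 (3 to 6 Mb) rho was -0.09, and 6 of 47 regions were wider than 500 bp. On chromosome 8 at 19 to 21 Mb rho was 0.10, and 28 of 90 regions were wider than 500 bp. The difference of median widths, stretch minus rest, was -25.5 bp. It was -110.5 bp among regions at or above the median score, -303.5 bp at or above the upper quartile and -14.5 bp against all other autosomes.

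Beyond the 10, the stretch holds 6 further genes with Zfp symbols, of which 2 had a region. Zfp984 had 3 in its body (scores 50, 39 and 28), and Zfp979, known as Ssm1b for its effect on DNA methylation of a transgene, had 1 (29). Gm13212, a protein-coding gene whose window also holds the shared run, had 1 region of score 26 in its body (chr4:145585271-145585549), with its midpoint 0.21 kb after the window start. Rex2 had more than most of the 10 genes, with 4 in its body and 1 before it. Along the chromosome they scored 248, 74, 175, 94 and 20, and the first 2 also count for Zfp993. The region of 94 (chr4:147021793-147022115) was the only one that reached into any of the 17 promoter windows compared here. It covered the last 107 bases of the window, and the 57 that lie before the start are in capitals here because they are the part of a listed region whose sequence the tables hold (chr4:147021730-147021849, + strand).
Rex2: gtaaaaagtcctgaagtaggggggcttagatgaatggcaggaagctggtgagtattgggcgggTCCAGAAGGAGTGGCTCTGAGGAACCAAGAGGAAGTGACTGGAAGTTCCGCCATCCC
The Rex2 window and the first window of Zfp600 had 299 identical bases over 300 aligned columns, while the nearest region to that start of Zfp600 was 6.70 kb away. The Rex2 window start lies 48.2 kb inside that gene. The Rex2 and Zfp979 windows were nearly as alike, with 290 identical bases over 294 columns. Only the 107 bases of the region inside the Rex2 window were compared, and the rest of it was not. With copies this alike, which start the reads of that part came from cannot be told apart here.

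Outside the stretch, 58 of 356 Zfp genes (16.3%), of any span, had a region in the body or within 10 kb. Among protein-coding genes it was 11.8% over all, and 18.6% over those outside the stretch in the span range of the 10. Among Zfp genes on the rest of chromosome 4 it was 2 of 12. On chromosome 7, which has many such genes, it was 20 of 91 (22.0%). Only 6 of the 356 had more than 1 region: Zfp704 had 6, Zfp960 had 3, and Zfp553, Zfp423, Zfp827 and Zfp78 had 2 each. In the cluster 7 of the 10 genes had more than 1, which follows in part from their choice by number of regions. Spans were not matched, and all 4 regions of Zfp991 are also those of Zfp978. Of 20 genes searched for a part in KRAB zinc finger silencing, 4 had a region, against 11.8% of protein-coding genes. Spans were not matched and the difference was not tested. The 20 include genes of the family itself, Zfp57, Zfp445 and Zfp809, beside the machinery that its proteins use. The region at Atf7ip, a partner of the methyltransferase Setdb1, was in the body (score 42). Those at Zfp57 (42), which protects imprints, at the corepressor gene Trim28 (33) and at Zfp809 (27), a repressor of retroviruses, were 7.45 to 9.06 kb away. Setdb1, Dnmt1 and Uhrf1 had no listed region, which does not show that they were unbound, since the list gives called regions alone and the depth is unknown.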

How the data were processed

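One list of regions was used, taken as the FLAG-Zscan4 immunoprecipitation from its region names. Per the submitters' processing notes, cutadapt, Bowtie2, MACS2 and deepTools were used with build mm10, and no source used here states versions, thresholds or filters. The score was deposited by the authors as 1 whole number per region, and start and end were deposited in bp. Region names show 32 numbers without a region in the list used here.

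Genes and promoter windows came from RefSeq tables of GRCm38.p6, which shares the coordinates of mm10 on the main chromosomes. Genes on autosomes or the X chromosome starting below 3 Mb were left out. The reference is C57BL/6J and the cells are not, and copy number was not measured. Genome and protein sequences were not used here, so planned protein features were not computed.

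A region belonged to a gene when its midpoint lay in the body or within 10 kb. Start and end of a gene body, and before and after it, follow the map positions and not the strand. Counting was tested on simulated data (Python 3.11.15, pandas 2.3.3). Windows were aligned with Biopython 1.88 (local; match 2, mismatch -3, gap opening -5, extension -2). The members and lists were chosen with earlier results of these data known. Named were the 10 genes, other genes of the stretch by number of regions, the genes at its 10 highest regions, the other Zfp genes with most regions and the silencing genes with a region. The silencing genes searched, with or without a region, were Trim28, Setdb1, Atf7ip, Cbx1, Cbx3, Cbx5, Dnmt1, Dnmt3a, Dnmt3b, Uhrf1, Chd3, Chd4, Hdac1, Hdac2, Morc3, Resf1, Zfp57, Zfp445, Zfp809 and Smarcad1. Alternatives were score limits, merging within 1 kb, other distances, an overlap of at least 1 bp, and other borders and comparison parts.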

Additional observations from a re-analysis of the deposited data

How the results depend on the processing

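The stretch was chosen on this list, and regions of 1 library are not replicates, so the values below describe how each number moves and do not measure its stability. All 10 genes had a region under every alternative except the gene body alone, which left 7, and the regions at them numbered 18 to 36. The ratio of densities, 9.42 as reported, was 14.8 with regions at or above the median score, 19.4 at or above the upper quartile, and 6.70 against the last 40 Mb of the chromosome. The ratio of median spacing (rest over stretch), 8.07 as reported, was 16.4 at or above the median score and 24.6 at or above the upper quartile. The difference of median scores, 26.5 as reported, was 44 with the stretch narrowed to run from the first to the last of the genes and 9.5 at or above the upper quartile, where the limit itself narrows the range of scores. The difference of median widths, -25.5 bp as reported, was -110.5 bp at or above the median score, -303.5 bp at or above the upper quartile and -14.5 bp against all other autosomes. The causes of these moves were not tested. Leaving out other dense windows changed nothing, since the rest of chromosome 4 has none. No paired analysis was possible because every group has 1 sample, and no replicate could be left out. Depth is unknown, so a missing region says nothing about binding.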

Other observations

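Pseudogenes of vomeronasal type 2 receptors stand among the zinc finger genes. Vmn2r-ps16 (chromosome 4, 146445134 to 146605510) spans 160 kb and had 5 regions in its body, Vmn2r-ps17 had 3, and Vmn2r-ps15 had 1, of score 102. These long bodies overlap Zfp992, Zfp981, Zfp993, Zfp600 and the end of Zfp980, so several of the regions are those already given. The regions near the starts of Zfp978 and Zfp982 each lay at a short pseudogene: the one of score 59 ended 14 bp before Vmn2r-ps18 and the one of score 31 shared 81 bp with Vmn2r-ps19. Vmn2r-ps20 had none within 50 kb. These values were picked after they were seen.

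By annotation, 27 of the 50 regions of the stretch had a midpoint in a protein-coding gene, 7 in a pseudogene and no protein-coding gene, and 16 in no gene. The pseudogene Gm13161, which overlaps the start of Zfp982, had 3 regions within 10 kb (highest score 238), the same as those of Zfp982. The long non-coding RNA genes Gm13165 and 1700095A21Rik had 2 each (highest scores 98 and 56). Those also count for Zfp600 and Zfp993, in that order. Among genes that are not of the zinc finger family, Tnfrsf8, which encodes the receptor CD30, and the natriuretic peptide gene Nppb at the edges of the stretch had 1 region each outside the body, with scores of 18 and 29.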
